A study of Sus scrofa with 70 samples.

Results

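The genes ATP1A4, ATP1B1, ATP1B2 and ATP1B3 encode subunits of the Na,K-ATPase, the sodium pump, and their mRNA was followed through 5 reproductive glands of the boar. These are 4 of the 35527 genes in the transcript annotation. They were chosen by gene name, and the level of a gene is the sum of the TPM, a transcript abundance scaled to transcript length and to a fixed total per library, of its annotated transcripts. ATP1B3 has no name in that annotation. It was taken as ENSSSCG00000011676, whose exons cover 96.5% of the exon bases that RefSeq gives for ATP1B3 on the same strand of the same build. Only 16.3% of the exon bases of that locus are RefSeq exon of ATP1B3, since it also holds long transcripts and PB.4795.1 that reach beyond the RefSeq gene end at base 82727052, so its level is uncertain to that extent. PB.4795.1 had at most 0.131 TPM in any library, and ENSSSCT00000043761, a transcript of 7900 bases, at most 8.03% of the ATP1B3 TPM.

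The testis, the epididymis and the 3 accessory glands (vesicular gland, prostate and bulbourethral gland) came from adult boars 12 months of age, with no treatment in the labels. The DSE boars are Diannan small-ear pigs, and the BMI boars belong to the Banna mini-pig inbred line, which was bred from DSE. Each breed and gland had 3 RNA-seq libraries, 30 in all, and 1 Iso-seq library of full-length reads, 10 in all. The labels do not say that libraries of a group came from separate animals, so p-values measure the spread between libraries. The RNA came from whole tissue, and fewer cells of a type cannot be told apart from less RNA per cell.

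The sodium pump moves sodium out of the cell and potassium in at the cost of ATP. Its alpha chain carries out the ion transport and the ATP hydrolysis, and its beta chain is a glycosylated partner that brings alpha to the plasma membrane and tunes its affinity for potassium. ATP1A4 is the alpha chain known from sperm, where it is needed for motility. In secretory and absorptive epithelia the sodium gradient made by the pump drives the carriers that move ions, sugars, amino acids and water into or out of the lumen.

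The labelled tissues carried the markers listed for them. In testis all 6 spermatid markers reached 1 TPM in every library, epididymis had 3 to 5 of the 5 epididymal markers found, and the vesicular gland had all 4 secretory proteins found. No list was made for the prostate or the bulbourethral gland, where all 6 epithelial markers reached 1 TPM. A pair of libraries stood apart in sums of their own or of another gland. BMI prostate replicate 2 held 302102 TPM of the vesicular gland secretory transcripts, against at most 17.4 TPM in the other prostate libraries and 358082 to 494192 TPM in the vesicular gland. DSE testis replicate 2 held 25766 TPM of spermatid markers against 77015 to 118124 TPM in the other testis libraries, and 63345 TPM of Leydig cell markers against 18537 to 32264 TPM. Where the difference of a member in testis or prostate from the mean of the other 4 glands is printed, its value without both follows. Smaller sums of other tissues stood in further libraries. Skeletal muscle markers came to 1233 TPM in DSE bulbourethral gland replicate 3 and 355 TPM in BMI replicate 1, against at most 20.8 TPM in the other 4, and the secretory transcripts of the vesicular gland came to 4958 TPM in BMI epididymis replicate 1. Each library was also left out in turn.

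All positions are on Sscrofa11.1. ATP1A4 (ENSSSCG00000054190) lies on the minus strand at chr4:90290394-90332760. ATP1B1 (ENSSSCG00000006296) lies on the minus strand at chr4:81911559-81991840, ATP1B2 (ENSSSCG00000017951) on the plus strand at chr12:52925693-52932636, and ATP1B3 on the plus strand at chr13:82680498-82760185. The annotation gives them 17, 13, 3 and 7 transcripts, of which 15, 13, 2 and 7 had TPM values. Most of the transcripts of ATP1A4 and ATP1B1 came from the Iso-seq reads, 12 of each.

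The TPM of ATP1B1 was divided among isoforms that share a coding length of 912 bases and differ around the first intron, or, for PB.13390.5, by an unspliced 5′ exon and an intron within the last exon. Their splice junctions are shown because the shares reported here rest on them. Each line is 20 bases of the genome around one end of an intron, read 5′ to 3′ on the minus strand, with the outermost 2 bases of the intron in capitals. The first intron of PB.13390.2 spans chr4:81936906-81937140, that of PB.13390.4 chr4:81936906-81937693, that of PB.13390.14 chr4:81937289-81937697 and that of PB.13390.12 chr4:81937053-81937319. PB.13390.2 and PB.13390.4 share an acceptor. The intron that PB.13390.5 has within the last exon of the others spans chr4:81912105-81912656.
PB.13390.2 donor: ccaccaatagGTgcggggct
PB.13390.4 donor: ggcaaggcagGTgcgggtca
PB.13390.2 and PB.13390.4 acceptor: atccccgcAGcagctgctga
PB.13390.14 donor: gccaggcaagGCaggtgcgg
PB.13390.14 acceptor: gtctctgcAGaggtcacagg
PB.13390.12 donor: cttccctttgACttttcctt
PB.13390.12 acceptor: cccgctccTGactctgctcc
PB.13390.5 donor: gaacaaactgTCatacgtat
PB.13390.5 acceptor: gggggaacTGccctttaaat

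PB.13390.2 and PB.13390.4 have the GT and AG ends of most introns, and PB.13390.14 has the rarer GC and AG ends. The introns of PB.13390.12 and PB.13390.5 begin and end with bases outside these classes, and both isoforms are recorded as having non-canonical splice sites. PB.13390.5 is also predicted to be a target of nonsense-mediated decay.

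The first bases of these isoforms define starts in different places. PB.13390.2, PB.13390.5 and PB.13390.12 begin at base 81937390, PB.13390.14 at 81937780 and PB.13390.4 at 81937861. The 250 bases before the first and the last of these starts are shown, and those before the 5′ end of ATP1A4 are given as well, as the member found mainly in testis. They span chr4:81937391-81937640, chr4:81937862-81938111 and chr4:90332761-90333010, are read 5′ to 3′ on the minus strand, and hold no exon of the annotated transcripts of their gene. Capitals mark the GC box, GGGCGG, in either strand.
ATP1B1 before PB.13390.5: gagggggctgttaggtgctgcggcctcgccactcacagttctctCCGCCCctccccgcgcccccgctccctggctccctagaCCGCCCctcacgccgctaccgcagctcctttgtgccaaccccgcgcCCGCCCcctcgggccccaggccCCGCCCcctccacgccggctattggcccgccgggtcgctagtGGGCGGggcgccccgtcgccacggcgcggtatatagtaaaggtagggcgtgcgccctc
ATP1B1 before PB.13390.4: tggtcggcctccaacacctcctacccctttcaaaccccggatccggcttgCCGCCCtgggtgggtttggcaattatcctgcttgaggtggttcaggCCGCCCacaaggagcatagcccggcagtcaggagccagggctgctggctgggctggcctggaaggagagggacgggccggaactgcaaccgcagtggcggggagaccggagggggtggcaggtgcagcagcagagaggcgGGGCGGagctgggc
ATP1A4 before ENSSSCT00000025246: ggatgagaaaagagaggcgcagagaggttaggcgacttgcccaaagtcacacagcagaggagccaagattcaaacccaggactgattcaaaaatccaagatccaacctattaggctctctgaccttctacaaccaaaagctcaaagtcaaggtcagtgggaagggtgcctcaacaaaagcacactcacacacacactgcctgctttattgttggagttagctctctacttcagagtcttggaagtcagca

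Guanine and cytosine made up 74.8% of the window before PB.13390.5, which held 29 CpG and 5 GC boxes. The window before PB.13390.4 had 68% GC, 13 CpG and 3 GC boxes, and that of ATP1A4 had 47.6% GC, 2 CpG and no GC box. Over 25851 windows of the same length before RefSeq gene starts the median was 55.6% GC (quartiles 46.4% and 66%), and 40.2% held a GC box. The TATA box TATAAA, the cAMP response element TGACGTCA and the palindromic androgen response element, searched on both strands, had no match in the 3 windows and were in 10.3%, 1.48% and 0.00387% of the 25851 windows. None of these motifs contains another. The ATP1B1 windows lie before starts of Iso-seq isoforms and the ATP1A4 window before the start of an annotated transcript, while 11 of the 12 ATP1A4 isoforms from Iso-seq begin at bases 90332610 to 90332628, inside it, so the windows do not stand before like starts.

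The first comparison set each gland against the others and addresses which pump subunits each gland uses. By TPM, ATP1A4 was a testis transcript, ATP1B1 was the main beta gene of the accessory glands and by far highest in the prostate, ATP1B2 was low and highest in testis and epididymis, and ATP1B3 was the main beta gene of the testis. Differences are given on the log2(TPM + 1) scale with their standard error (SE), as a gland minus the mean of the other 4 glands. They were tested with limma over 19791 genes that had at least 1 TPM in at least 3 libraries, and all 4 members passed that filter, ATP1A4 through testis, which fixes the direction of its differences. A difference was called where its Benjamini-Hochberg adjusted p over those genes was below 0.05 and its size at least 1. Of the 20 differences of the members, 13 were called, against 47.4% of all genes in testis, 21.7% in epididymis, 33% in the vesicular gland, 16.5% in the prostate and 20.4% in the bulbourethral gland. The 13 include ATP1A4 in every gland, so nothing is read from that count.

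ATP1A4, the sperm alpha chain, had 194, 202 and 221 TPM in the BMI testis libraries and 148, 52.0 and 164 TPM in the DSE testis libraries. In the epididymis it had 0.912, 3.46 and 0.326 TPM in BMI and 0.0494, 0.448 and 1.14 TPM in DSE. It stayed between 0.0132 and 0.711 TPM in the 18 libraries of the vesicular, prostate and bulbourethral glands. The 6 testis libraries were all far above the other 24, and the lowest of them was DSE replicate 2, the library low in spermatid markers.

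The testis difference of ATP1A4 was 6.84 (SE 0.21, limma adjusted p = 4.4e-20), or 7.11 without the 2 libraries that stood apart, and in each of the 4 other glands the gene was called lower than the mean of the rest. As the gene passed the filter through testis, this p and these calls describe its levels and are no separate support. Over all 4 members 23 of 40 differences between pairs of glands were called. Of all genes 51%, 53%, 48.9% and 49.2% were called between testis and epididymis, vesicular, prostate and bulbourethral gland, in that order. Between epididymis and these accessory glands 36.5%, 21.3% and 21.4% were called, and 14.8% between vesicular gland and prostate, 27.8% between vesicular and bulbourethral gland and 7.65% between prostate and bulbourethral gland. ATP1A4 was called in the 4 pairs with testis, at 6.36 to 7.10, and in no other pair by the same settings. These 4 are among the 23 and are likewise descriptions. The epididymis was 0.73 (SE 0.26) above the vesicular gland, with an adjusted p of 0.0179 and a size below the threshold. With a pseudocount of 0.1 TPM the epididymis was called above the vesicular gland (1.97, adjusted p = 0.00138) and above the prostate (1.83 against 0.72, adjusted p = 0.00416). The call of the epididymis against the rest was lost with a pseudocount of 0.1 TPM (-0.72, adjusted p = 0.121) and without BMI replicate 3 (-0.92) or DSE replicate 1 (-0.99). BMI epididymis replicate 2, the highest epididymal library for ATP1A4, was also the highest for spermatid markers, with 1062 TPM and all 6 of them at 1 TPM or more. DSE epididymis replicate 1 was next for these markers, with 264 TPM and all 6 at 1 TPM or more, and had the lowest ATP1A4 of the epididymis. The part of these markers in the ATP1A4 level was not tested.

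ATP1B1, the beta chain of most epithelia, reached the highest levels of the 4 members. The prostate had 2277, 1081 and 2709 TPM in BMI and 3026, 3264 and 3986 TPM in DSE. The vesicular gland had 371, 458 and 387 TPM in BMI and 279, 370 and 397 TPM in DSE, and the bulbourethral gland had 120, 226 and 205 TPM in BMI and 312, 238 and 300 TPM in DSE. Every prostate library was above every library of another gland, and the ranges of the vesicular and bulbourethral glands overlapped. BMI prostate replicate 2, which carried vesicular gland transcripts, was the lowest of the prostate.

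The epididymis had 130, 63.8 and 74.2 TPM of ATP1B1 in BMI and 16.4, 106 and 88.3 TPM in DSE. The testis had 20.8, 23.8 and 22.2 TPM in BMI and 27.9, 81.5 and 43.8 TPM in DSE. These ranges overlapped, with DSE epididymis replicate 1 below every testis library and DSE testis replicate 2 above the epididymal median of 81.2 TPM. The epididymal libraries with the most ATP1B1, BMI replicate 1 and DSE replicates 2 and 3, also had the highest sums there of markers of red cells (2679, 1626 and 1021 TPM against at most 253 TPM), smooth muscle (6980, 13745 and 4173 TPM against at most 2522 TPM) and endothelium (559, 242 and 190 TPM against at most 73.7 TPM). They were also highest there for the secretory transcripts of the vesicular gland (4958, 882 and 204 TPM against at most 29.1 TPM). BMI replicate 1 and DSE replicate 2 had the lowest sums of epididymal markers (1156 and 1125 TPM), while DSE replicate 3 had 7651 TPM. The part of these tissues in the ATP1B1 level was not tested.

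The prostate difference of ATP1B1 was 4.43 (SE 0.26, limma adjusted p = 3.6e-12), or 4.68 without the 2 libraries that stood apart. Testis, at -3.39 (SE 0.26, or -3.64 without both), and epididymis, at -2.07 (SE 0.26), were called lower. The vesicular gland lay 0.98 (SE 0.26) above the rest, under the size threshold by limma with an adjusted p of 0.00201. It was called after scaling by median-of-ratios size factors, at 1.83, and without any one of 8 libraries, at 1.001 to 1.05. The bulbourethral gland lay at 0.06 (SE 0.26, adjusted p = 0.873), and at 0.20 without BMI replicate 1, its lowest library for ATP1B1 and one of those with skeletal muscle markers. In the order of levels, from prostate through vesicular gland, bulbourethral gland and epididymis to testis, the vesicular and bulbourethral glands were the one neighbouring pair not called (0.74, SE 0.33, adjusted p = 0.0705). After size-factor scaling this pair was called as well, at 1.60 (adjusted p = 2.2e-05). The call of epididymis over testis (testis lower by 1.05, SE 0.33, adjusted p = 0.00711) was lost after size-factor scaling and without any one of BMI epididymis replicate 1, DSE testis replicate 1 and DSE epididymis replicates 2 and 3. Testis minus epididymis was then -0.81 to -0.90, under the size threshold, with limma adjusted p of 0.00513 to 0.0317.

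Epithelial markers moved with the order of ATP1B1 in part. Their 6 genes summed to 17.7 to 47.6 TPM in testis, with 4 or 5 of 6 at 1 TPM or more. All 6 reached 1 TPM in every library of the other glands, with sums of 1014 to 1855 TPM in epididymis, 781 to 1474 TPM in the vesicular gland, 1374 to 2489 TPM in the prostate and 2530 to 3000.4 TPM in the bulbourethral gland. The bulbourethral gland thus had the highest epithelial sum without the highest ATP1B1. The 2 basal epithelial markers found summed to 0.478 to 12.7 TPM in the prostate and at most 0.448 TPM in testis. They summed to 22.2 to 118 TPM in epididymis, 25.1 to 68.1 TPM in the vesicular gland and 33.2 to 223 TPM in the bulbourethral gland. The part of epithelial content in the ATP1B1 difference was not tested.

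ATP1B2, known as the beta chain of glia and some neurons, was low by TPM in every gland. Testis had 7.23, 10.6 and 8.07 TPM in BMI and 10.1, 16.0 and 10.1 TPM in DSE, and epididymis had 10.3, 8.60 and 4.41 TPM in BMI and 11.6, 8.59 and 9.29 TPM in DSE. The 18 accessory gland libraries lay between 0.164 and 2.48 TPM. Testis and epididymis overlapped and were both above every accessory gland library. PRX, a marker of myelinating Schwann cells, had 6.44 to 13.4 TPM in testis and 3.62 to 23.1 TPM in epididymis, against 1.54 to 4.62 TPM in the accessory glands, while SOX10, the transcription factor of the Schwann lineage, was at most 0.309 TPM in testis. The 6 Schwann cell and nerve markers found summed to 38.4 to 89.4 TPM in testis, where 2 of them reached 1 TPM. Their sums were 10.1 to 292 TPM in epididymis and 2.52 to 28.9 TPM in the accessory glands. The part of nerve in the ATP1B2 level was not tested.

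The difference of ATP1B2 was 1.83 (SE 0.16, limma adjusted p = 2.2e-10; 1.73 without both libraries that stood apart) in testis and 1.55 (SE 0.16) in epididymis, and both were called higher. The vesicular gland (-1.52) and the bulbourethral gland (-1.27) were called lower, and the prostate at -0.60 (-0.58 without both) was not. Testis and epididymis differed by 0.22 (SE 0.21, adjusted p = 0.347). The 3 pairs among accessory glands were not called, though the vesicular gland was called below the prostate with a pseudocount of 0.1 TPM (-1.38 against -0.73).

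ATP1B3, a widely expressed beta chain, varied least, from 22.5 to 165 TPM. Testis had 151, 165 and 152 TPM in BMI and 135, 164 and 149 TPM in DSE. Epididymis ranged from 32.4 to 76.3 TPM with a median of 66.3 TPM, the vesicular gland from 31.8 to 83.7 TPM (median 49.6 TPM), the prostate from 22.5 to 52.8 TPM (median 30.5 TPM) and the bulbourethral gland from 23.8 to 54.2 TPM (median 39.9 TPM). By TPM testis was above every other library, and the other glands overlapped one another.

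The testis difference of ATP1B3 was 1.77 (SE 0.16, limma adjusted p = 1.9e-10), or 1.76 without the 2 libraries that stood apart. The prostate was 0.96 (SE 0.16) lower than the rest, with an adjusted p of 2.0e-05 and a size under the threshold. It was called at -1.06 without both libraries, at -1.07 without BMI prostate replicate 2 alone and at -1.09 without DSE prostate replicate 1. Epididymis, vesicular gland and bulbourethral gland were not called, at 0.09, -0.26 and -0.64. After size-factor scaling epididymis (-0.41) and vesicular gland (0.59) changed sign. Under that scaling the excess of testis over the vesicular gland fell from 1.62 to 0.74 and was not called, and the vesicular gland was called above the prostate (1.13 against 0.56, adjusted p = 1.1e-05) and above the bulbourethral gland (1.16 against 0.31, adjusted p = 4.9e-06).

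Vesicular gland differences depended on the scaling. Its secretory transcripts summed to 358082 to 494192 TPM, and their part in this was not tested. The median difference of all genes in that gland was -0.69, and it was -0.20 after size-factor scaling. Of the genes called there, 8.94% were higher with TPM and 37.8% after size-factor scaling, and in epididymis 69.7% and 48.3%. ATP1B1 kept a positive difference in the vesicular gland under both.

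**Figure D1:**
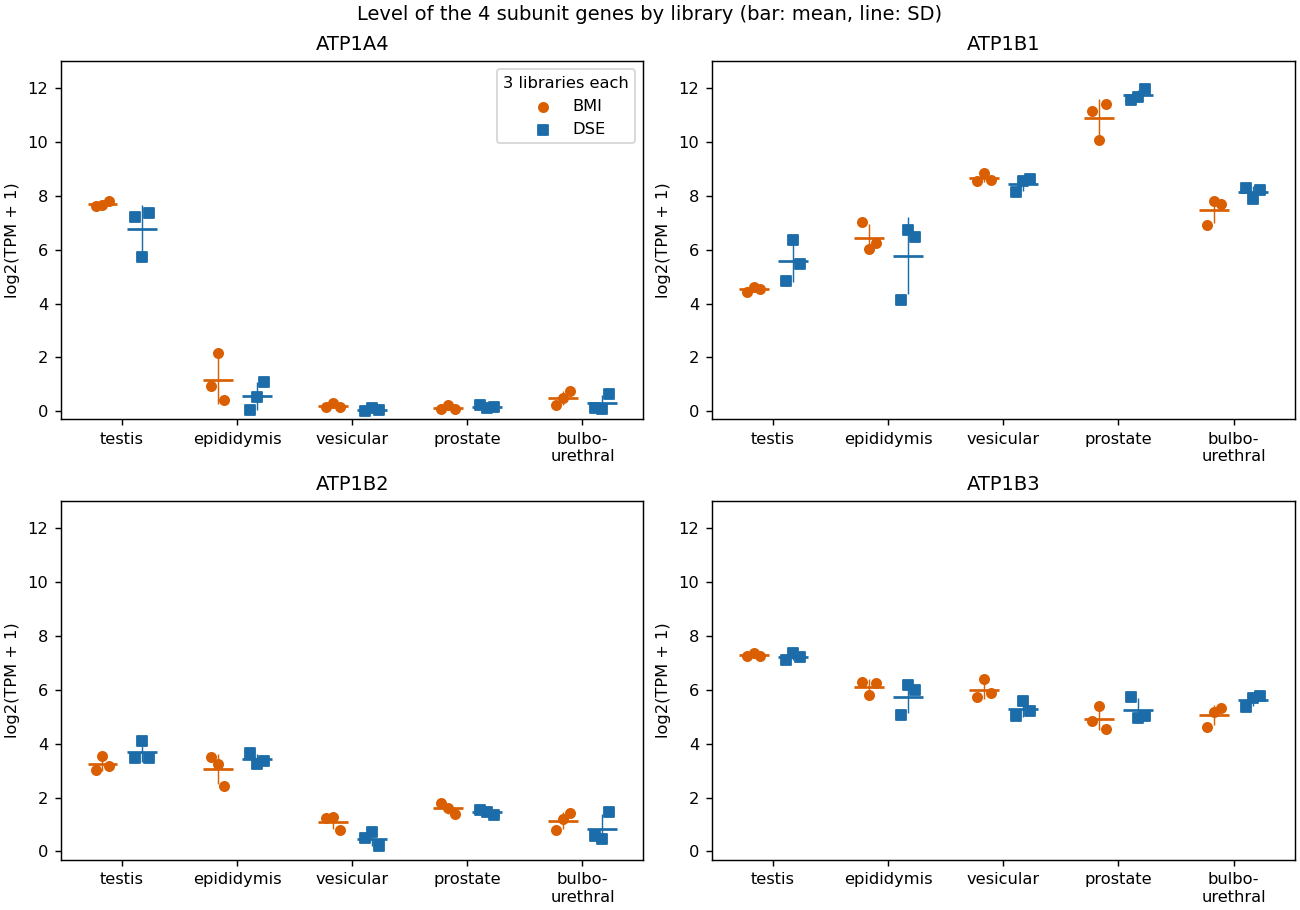
Level of the 4 subunit genes as log2(TPM + 1) on the vertical axis, by gland on the horizontal axis and by breed in colour. Points are the 3 libraries of a breed and gland, bars their mean and vertical lines their SD. ATP1A4 and ATP1B3 are highest in testis, where ATP1A4 ranges from 52.0 to 221 TPM, and ATP1B1 is highest in the prostate, where it ranges from 1081 to 3986 TPM.

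**Figure D2:**
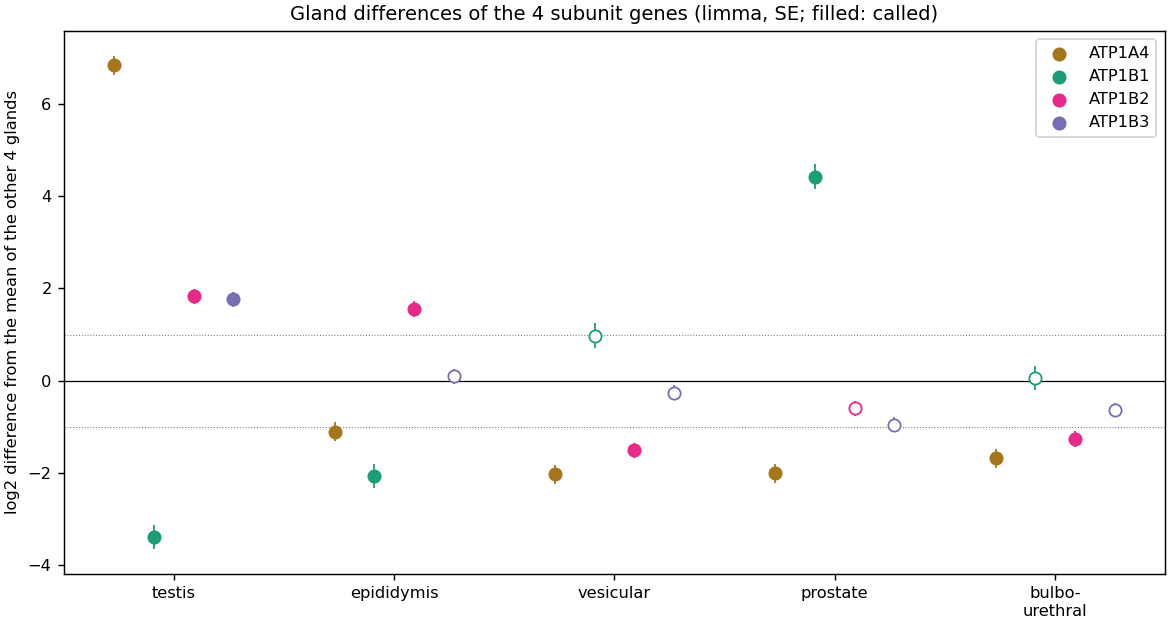
Difference of each gland from the mean of the other 4 glands on the log2(TPM + 1) scale, with the limma SE as vertical lines. Filled points were called and open points were not, and dotted lines mark differences of 1 and -1. The largest differences are those of ATP1A4 in testis (6.84) and ATP1B1 in the prostate (4.43).

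The make-up of the beta chain RNA changed from gland to gland. Since TPM is scaled to transcript length, the 3 beta genes can be set beside each other as percent of their summed TPM in a library. The beta RNA of the testis was mostly ATP1B3, with a lowest share of 62.7%, a median of 80.4% and a highest share of 84.3% over 6 libraries. Without DSE replicate 2 the mean ATP1B3 share was 80.4%. ATP1B1 made up 11.6% to 31.2% there and ATP1B2 4.05% to 6.12%. The highest ATP1B1 share of testis was that of DSE replicate 2, the library with high Leydig cell markers.

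In the epididymis ATP1B1 (27.2% to 60.0%) and ATP1B3 (35.2% to 53.6%) shared most of the beta TPM, and ATP1B2 reached 19.2% in the library with the lowest ATP1B1. In the accessory glands ATP1B1 took most of the TPM. Its share was 84.3% to 91.7% in the vesicular gland, 96.2% to 99.2% in the prostate and 82.2% to 88.4% in the bulbourethral gland, and ATP1B2 was at most 0.686%. ATP1B3 made up 8.27% to 15.4% in the vesicular gland, 0.777% to 3.66% in the prostate and 11.4% to 17.6% in the bulbourethral gland. The ATP1B1 shares of testis and epididymis overlapped, and those of the accessory glands lay above both.

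The median of the summed beta TPM was 2907 in the prostate and 276 in the bulbourethral gland.

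**Figure D3:**
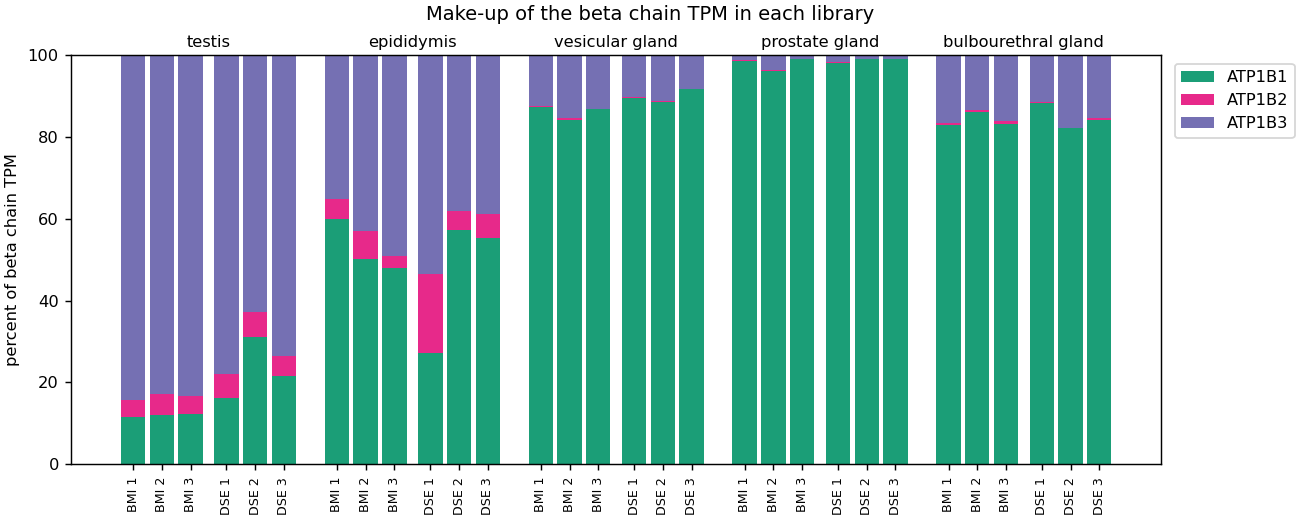
Percent of the beta chain TPM that each of the 3 beta genes makes up, with 1 bar for each of the 30 libraries, ordered by gland, breed and replicate. ATP1B3 leads in testis, at 62.7% or more, and ATP1B1 leads in the accessory glands, at 82.2% or more.

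The Iso-seq libraries counted full-length reads of single molecules, and the reads of the deposited isoforms summed to 231413 to 458697 in each. Rates per 1000000 reads are over these sums. The sums leave out full-length reads not counted to a deposited isoform, a part that varied between libraries. With 1 library per breed and gland there is no test, and intervals cover counting error only. ATP1A4 had 117 reads in BMI testis, or 257 per 1000000 reads (95% exact Poisson interval 213 to 308), and 110 reads in DSE testis, or 240.3 per 1000000 reads (197 to 290). It had 1 read in BMI epididymis and 0 in the other 7 libraries, where 3 reads, the limit that a count of 0 allows, correspond to 7.72 to 12.96 per 1000000 reads. The upper ends of the exact Poisson intervals of these 7, which are two-sided, are 9.49 to 15.9 per 1000000 reads. Both assays thus placed ATP1A4 in testis in both breeds.

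The beta genes differed more between the assays. ATP1B3 made up 87.6% of the beta reads of testis (155 of 177, breeds summed) against 77.4% ± 8.30 of beta TPM (SD, n = 6 libraries). ATP1B1 made up 49.7% of the beta reads of the prostate (74 of 149) against 98.4% ± 1.16 of beta TPM. Its read shares were 23.9% in the vesicular gland (33 of 138), 10% in the bulbourethral gland (7 of 70) and 4.65% in the epididymis (4 of 86), against TPM shares of 88.1% ± 2.54, 84.5% ± 2.30 and 49.7% ± 11.9. The prostate had the highest ATP1B1 share in both assays and the testis the lowest. ATP1B3, not ATP1B1, led the beta reads of the vesicular gland (51 of 70 in BMI and 49 of 68 in DSE), of the bulbourethral gland (47 of 51 and 14 of 19) and of BMI prostate (35 of 59). In the epididymis ATP1B2 had 18 of 38 beta reads in BMI (47.4%, Wilson 95% interval 32.5% to 62.7%), as many as ATP1B3, and 16 of 48 in DSE (33.3%, 21.7% to 47.5%), against 2 reads of ATP1B1 in each. By reads, ATP1B2 and ATP1B3 rather than ATP1B1 made up most of the beta chain there. For ATP1B1 the mean ± SD of the TPM share lay above the Wilson interval of the read share in all 10 groups of breed and gland, and the cause was not tested.

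Rates per library differed from TPM as well. ATP1B3 had 174 (95% exact Poisson interval 137 to 216) and 166 (131 to 208) per 1000000 reads in BMI and DSE testis, and 174 (129 to 228) and 154 (114 to 204) in BMI and DSE vesicular gland, so full-length reads did not set testis above the vesicular gland. Its rates in the other glands ran from 39.2 to 133 per 1000000 reads. ATP1B1 had 72.2 (43.4 to 113) in BMI prostate and 57.9 (33.7 to 92.6) in BMI vesicular gland, with overlapping intervals, and 164 (123 to 213) in DSE prostate and 50.3 (28.7 to 81.7) in DSE vesicular gland, without overlap.

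By breed, ATP1B1 made up 32.2% of the beta reads in BMI prostate (19 of 59, Wilson 95% interval 21.7% to 44.9%) and 61.1% in DSE prostate (55 of 90, 50.8% to 70.5%). These intervals did not overlap. They compare 1 library with 1 library, not the breeds. In TPM the corresponding means were 98.0% and 98.8%.

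**Figure D4:**
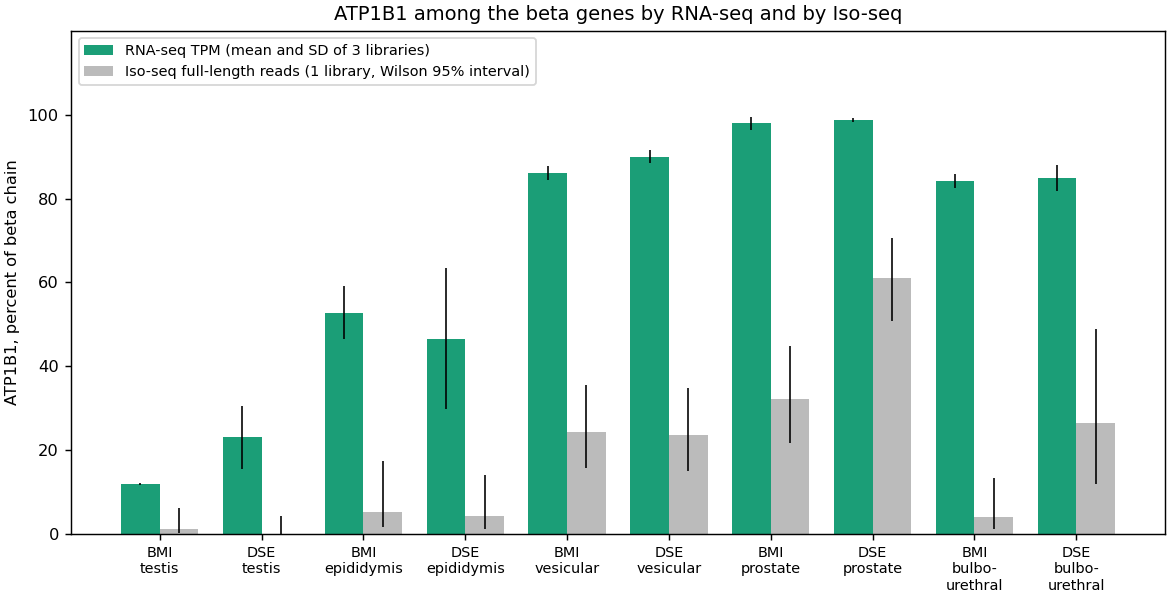
ATP1B1 as percent of the beta chain by breed and gland. Green bars are the mean of 3 RNA-seq libraries with their SD, and grey bars are the full-length reads of 1 Iso-seq library with the Wilson 95% interval. The green bars stand at 84.1% or more in the accessory glands, where the grey bars range from 3.92% to 61.1%.

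The next comparison set DSE against BMI within each gland. No subunit gene differed between the breeds by the test: 0 of 20 differences were called by limma, and 4 of the 20 had an unadjusted p under 0.05. Of all genes 4.79% were called in testis, 0.702% in epididymis, 0.49% in the vesicular gland, 0.596% in the prostate and 0.298% in the bulbourethral gland. The alternatives also called 0, apart from 1 left-out library described with ATP1A4 below. Where the breeds are said below not to overlap, this describes the library values and is no separate support for a difference. With so few libraries in a group, separate ranges also arise by chance. The share of all genes with separate ranges is not given here.

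In testis ATP1A4 averaged 206 ± 13.7 TPM in BMI and 121 ± 60.6 TPM in DSE (SD, n = 3 libraries each). All 3 BMI libraries were above all 3 DSE libraries, and the difference was -0.92 (SE 0.37, limma adjusted p = 0.161). It was -0.40 without DSE replicate 2 and was called without DSE replicate 3, at -1.22 with an adjusted p of 0.0498. ATP1B1 lay the other way in testis, at 1.03 (SE 0.47, adjusted p = 0.240), again with no overlap between the breeds, and at 0.63 without DSE replicate 2. Both differences had DSE replicate 2 at the extreme, the library with the lowest spermatid and highest Leydig cell sums, whose part was not tested.

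ATP1B1 averaged 2023 ± 843 TPM in BMI prostate and 3425 ± 500.05 TPM in DSE prostate. The breeds did not overlap, and the difference was 0.85 (SE 0.47, limma adjusted p = 0.431), or 0.45 without BMI replicate 2. ATP1B3 in the vesicular gland had 52.4, 83.7 and 58.1 TPM in BMI and 31.8, 46.9 and 35.8 TPM in DSE, again with no overlap, at -0.74 (SE 0.28, adjusted p = 0.290). It was -0.22 after size-factor scaling, and the median breed difference of all genes in that gland was -0.27. ATP1B2 in the same gland was lower in each DSE library than in any BMI library, at -0.62 (SE 0.29, adjusted p = 0.402). In the bulbourethral gland the DSE libraries were above all BMI libraries for ATP1B1, at 0.66 (SE 0.47, adjusted p = 1), and for ATP1B3, with 23.8, 35.3 and 39.5 TPM in BMI and 40.4, 51.0 and 54.2 TPM in DSE in rising order, at 0.57 (SE 0.28, adjusted p = 1). Without BMI replicate 1, the lowest for both and a library with skeletal muscle markers, these were 0.38 and 0.36. ATP1A4 in the vesicular gland also did not overlap, at 0.239 TPM or less in every library. The other differences between breeds were within 0.66 of 0, with adjusted p of 0.523 or more.

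Averaged over glands, 0 of 4 members were called between breeds, 1 at an unadjusted p under 0.05, against 0.384% of all genes. The breed difference changed between glands in 0 of 4 members by limma's F test at an adjusted p below 0.05, again 1 at an unadjusted p under 0.05, against 2.96% of all genes. ATP1B3 had the lowest adjusted p of the 4 there, 0.264.

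At the level of isoforms, each transcript was tested in the same way among 64661 transcripts. Of 130 gland differences of the members' isoforms, 49 were called, 18 of 50 for ATP1A4, 25 of 50 for ATP1B1, 4 of 10 for ATP1B2 and 2 of 20 for ATP1B3. Of all transcripts 37.9% were called in testis, 14% in epididymis, 15.9% in the vesicular gland, 9.18% in the prostate and 12.9% in the bulbourethral gland. A member's isoforms share reads and are not independent of each other. Of the 10 ATP1A4 isoforms tested, 5 were listed at 0 in all 24 libraries outside testis and 3 in 23 of them, so their passing the filter rested on testis, and nothing is read from the count of 18. The share of a gene's TPM in an isoform was tested as well, among 41955 isoforms of genes with at least 1 TPM in every library, and called at an adjusted p below 0.05 and 10 percentage points.

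The leading ATP1B1 isoforms by TPM were PB.13390.5, PB.13390.14 and PB.13390.12, whose junctions are printed above. PB.13390.5 made up 21.8% to 53.0% of ATP1B1 in every library and its share was called in no gland. PB.13390.14 had its highest shares where the gene was highest. Its share was 36.3% to 50.1% in the prostate, 24.8% to 42.2% in the vesicular gland, 2.54% to 23.2% in the bulbourethral gland, 0% to 27.7% in epididymis and 0% to 23.95% in testis.

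PB.13390.12 took the opposite course. It was listed at 0 in all 6 prostate libraries, although those libraries had the most ATP1B1, and it made up 36.2% to 55.3% in the bulbourethral gland, 27.4% to 65.7% in testis, 23.4% to 74.4% in epididymis and 0% to 28.2% in the vesicular gland. The prostate and the bulbourethral gland did not overlap for either isoform.

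In the prostate PB.13390.14 was 25.0 points above the mean of the other glands (limma adjusted p = 7.2e-05) and PB.13390.12 was 37.3 points below it (adjusted p = 0.000117). In testis PB.13390.14 was 16.4 points lower (SE 3.43, adjusted p = 0.000621) and PB.13390.12 was 22.8 points higher (SE 5.35, adjusted p = 0.00182). PB.13390.12 was also called in the vesicular gland (-17.5 points, adjusted p = 0.0428) and in the bulbourethral gland (19.7 points, adjusted p = 0.0264). All 6 calls were also made without both libraries that stood apart. These 6 calls of 70 share differences of the members compare with 17.8% of all isoforms called in testis, 3.39% in epididymis, 3.78% in the vesicular gland, 2.57% in the prostate and 3.21% in the bulbourethral gland. The vesicular call was lost without any one of 17 libraries (adjusted p of 0.0505 to 0.150), BMI prostate replicate 2 among them (0.0505), and the bulbourethral call without any one of 5 (0.0518 to 0.0814).

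**Figure D5:**
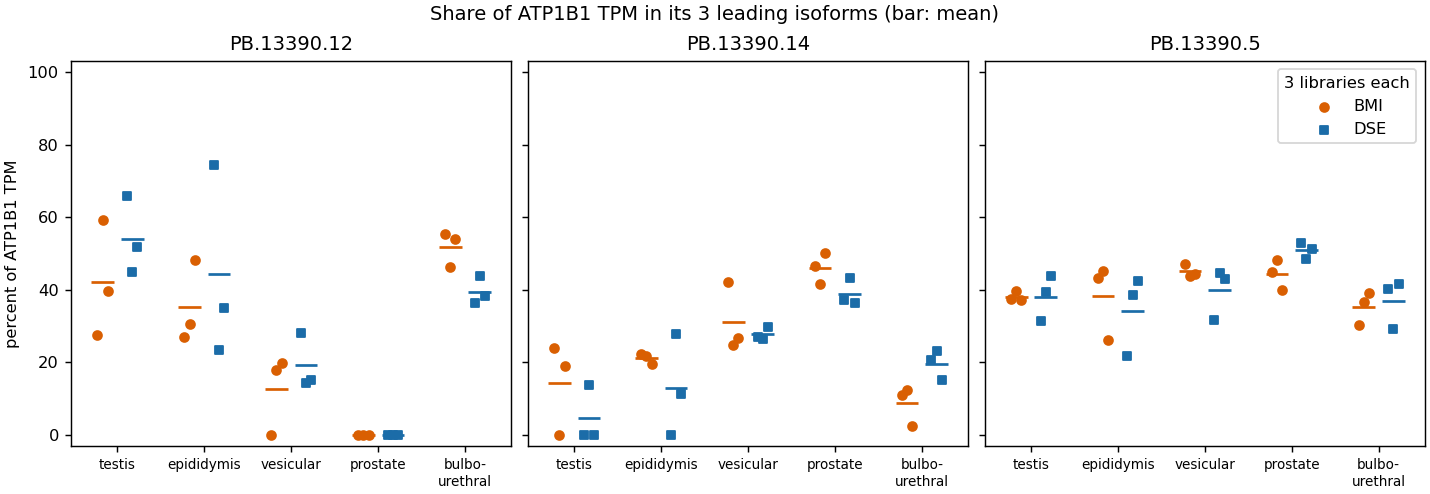
Share of ATP1B1 TPM, in percent, in its leading isoforms by TPM, by gland and breed. Points are libraries and bars the mean of 3. PB.13390.12 lies at 0% in the prostate and between 36.2% and 55.3% in the bulbourethral gland, while PB.13390.14 lies between 36.3% and 50.1% in the prostate.

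ATP1B1 had 119 full-length reads in all. Of these 54, or 45.4%, were PB.13390.2, the isoform with the GT and AG junction, and 29 of the 55 reads of DSE prostate were of this isoform. PB.13390.5, which led by TPM with 50.9% of ATP1B1 in DSE prostate, had 1 of those 55 reads (1.82%, Wilson 95% interval 0.322% to 9.61%). PB.13390.14 and PB.13390.12, the isoforms of the 6 share calls, had 2 of the 119 reads each (1.68%, Wilson 95% interval 0.462% to 5.92%). Those of PB.13390.14 were in DSE prostate and those of PB.13390.12 in the bulbourethral gland. The share calls thus rest on TPM alone. The assays therefore ranked the isoforms of ATP1B1 differently. The isoforms differ in short stretches, and how far short reads can separate them was not tested.

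ATP1A4 in testis was spread over many isoforms. PB.13510.23, with 23 exons and a coding length of 2973 bases, had 82.7, 91.3 and 96.6 TPM in BMI testis and 64.5, 25.9 and 73.5 TPM in DSE testis, which is 42.6% to 49.9% of the gene. It was listed at 0 in 23 of the 24 other libraries. PB.13510.1, with 20 exons and a coding length of 2655 bases, followed with 16.6% to 30.3% of the gene in testis and was listed at 0 in every other library.

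The 5′ junction of ATP1A4 is shown because the leading isoforms of the 2 assays differ there. The first intron of PB.13510.23 spans chr4:90332249-90332489 and that of ENSSSCT00000025246 chr4:90332249-90332513, so that they share an acceptor. Sequences are of the minus strand, 5′ to 3′, with the outermost 2 bases of the intron in capitals.
PB.13510.23 donor: ccactcctcgGTcccaaggc
ENSSSCT00000025246 donor: catcacttagGCacagagta
shared acceptor: ttcccaccAGttgatctggg

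Of the 228 full-length reads of ATP1A4, 191 (83.8%, Wilson 95% interval 78.4% to 88.0%) were of PB.13510.20, which matches all junctions of ENSSSCT00000025246. PB.13510.23 had 2 of 117 reads in BMI testis (1.71%, 0.470% to 6.02%) where it had 43.8% of the TPM. ENSSSCT00000025246 itself, with a GC donor where PB.13510.23 has a GT donor, had at most 0.541 TPM in testis. The assays again ranked the isoforms differently.

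Between breeds 6 of 130 isoform differences were called, 5 of ATP1A4 in testis and 1 of ATP1B1 in the prostate. Of all transcripts 4.97% were called in testis, 1.09% higher and 3.88% lower in DSE, 0.453% in the prostate, 0.713% in epididymis, 0.333% in the vesicular gland and 0.435% in the bulbourethral gland. All 5 calls of ATP1A4 were lower in DSE testis. PB.13510.1, PB.13510.14 and PB.13510.18 were listed at 0 in all 24 libraries of the other glands and PB.13510.24 in 23 of them, so they passed the filter through testis alone, and the spread behind their SE is pooled with groups at 0. With testis fitted alone none of the 5 was called, with adjusted p of 0.454 to 0.637.

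PB.13510.14 had 5.22, 11.05 and 9.89 TPM in BMI testis and 1.32, 1.26 and 4.82 TPM in DSE testis, without overlap, and differed by -1.58 (SE 0.25, limma adjusted p = 0.000121). PB.13510.24 had 11.7, 19.8 and 5.92 TPM in BMI and 2.08, 0 and 4.46 TPM in DSE, also without overlap, and differed by -2.26 (SE 0.38, adjusted p = 0.000253). Both are predicted targets of nonsense-mediated decay. PB.13510.18 differed by -1.16 (SE 0.22, adjusted p = 0.000922), again without overlap.

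PB.13510.1 (-1.07, SE 0.32, limma adjusted p = 0.0401) and PB.13510.6 (-1.25, SE 0.34, adjusted p = 0.0221) overlapped between the breeds. Without DSE testis replicate 2 the calls of PB.13510.18 (-0.72), PB.13510.1 (-0.42) and PB.13510.6 (-0.72) were lost, and those of PB.13510.14 and PB.13510.24 were not. The call of PB.13510.1 was also lost with a pseudocount of 0.1 TPM (adjusted p = 0.184), after size-factor scaling (0.0732) and without any one of 14 libraries in all (0.050043 to 0.1802), each BMI testis library among them. That of PB.13510.6 was also lost with that pseudocount (0.233) and without BMI testis replicate 1 (0.133) or 3 (0.122). ATP1A4 and ATP1B2 were below 1 TPM in some libraries, so their isoform shares were not tested.

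PB.13390.4, the ATP1B1 isoform whose start lies farthest upstream of those printed above, had 3.69, 2.39 and 0.816 TPM in BMI prostate and 16.8, 10.8 and 20.1 TPM in DSE prostate. The breeds did not overlap, and the difference was 2.42 (SE 0.36, limma adjusted p = 0.000564). It made up 0.03% to 0.55% of ATP1B1 in the prostate. In full-length reads it had 7 of the 55 reads of DSE prostate and 0 of the 19 of BMI prostate. The call was lost with a pseudocount of 0.1 TPM (2.92, adjusted p = 0.249) and in a fit of the prostate alone (adjusted p = 0.184). No isoform share was called between breeds (0 of 70 by limma, 1 at an unadjusted p under 0.05), against 1.55% of all isoforms in testis, 0.193% in epididymis, 0.269% in the vesicular gland, 0.219% in the prostate and 0.155% in the bulbourethral gland. The breed difference changed between glands in 3 of 26 isoforms of the members by limma's F test, against 2.62% of all transcripts. They are 3 of the 6 called between breeds above, and the F test takes up the same difference.

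ATP1B3 kept the same isoforms in every gland. ENSSSCT00000012782 made up 59.8% to 75.0% and PB.4791.3 19.5% to 30.5% of the gene over the 30 libraries, and 0 of 20 share differences were called. ENSSSCT00000012782, with a coding length of 732 bases, skips an exon that ENSSSCT00000043761, with a coding length of 840 bases, includes, and the junctions around it are shown because the assays part there. Both introns start at 82699850 on chromosome 13, and they end at 82713100 in the first and 82706158 in the second. Sequences are of the plus strand, 5′ to 3′, with capitals as before.
shared donor: tctagtccagGTaattatgt
ENSSSCT00000012782 acceptor: tcctttttAGcatatgactt
ENSSSCT00000043761 acceptor: ctctttgtAGgacttatggt

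Full-length reads of ATP1B3 were 434, of which 423 (97.5%) were PB.4791.1, with the coding length of 840 bases. ENSSSCT00000012782 had 70.3% of ATP1B3 TPM in BMI testis and 0 of its 79 full-length reads (Wilson upper limit 4.64%). The reference used for TPM did not hold PB.4791.1 itself, which was classed as matching part of a known transcript. ATP1B2 was read as PB.3903.1, with 7 exons and a coding length of 699 bases, in 63 of 67 full-length reads (94.0%), and this isoform made up 34.5% to 100% of the gene's TPM.

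Genes that work with the pump were followed as lists. Of 11 FXYD and NKAIN genes, small membrane proteins that bind the pump or its beta chain, 9 were tested. In testis 4 were called higher and 3 lower, in epididymis 1 and 1, in the vesicular gland 1 and 2, in the prostate 0 and 1, and in the bulbourethral gland 2 and 0. Of all genes 47.4%, 21.7%, 33%, 16.5% and 20.4% were called in these glands, in that order, and the same shares stand behind the next lists. The largest was FXYD3 in the bulbourethral gland (5.86, limma adjusted p = 3.0e-12), at 193 to 400 TPM there, 12.6 to 57.7 TPM in the vesicular gland and at most 20.1 TPM elsewhere. FXYD2, the gamma subunit of the kidney pump, was also called higher in the bulbourethral gland (2.78). FXYD6 (1.55) and FXYD7 (1.61) were higher in testis, and the locus taken as FXYD7 merges transcripts, so its level is uncertain. FXYD5 was lower in testis (-1.06). FXYD2, FXYD5 and FXYD6 were also unnamed loci matched by position. RefSeq exon made up 43.2%, 37.8% and 70.9% of their exon bases, against 60.4% for FXYD7, so their levels are uncertain as well. FXYD4 did not pass the filter.

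Of 12 membrane anchors and regulators of the pump or of ion carriers, 10 were tested. In testis 4 were called higher, led by STK39 (3.09) and SIK1 (3.08). In epididymis 2 were called higher, in the vesicular gland 4 lower, in the prostate 1 lower, and in the bulbourethral gland 1 higher and 1 lower. The median difference of this list was 0.41 in testis and -0.83 in the vesicular gland, beside 0.31 and -0.69 over all genes. Of 15 carriers driven by the sodium or the ion gradients of the pump, all tested, 5 were called higher and 4 lower in testis, 3 and 1 in epididymis, 2 and 7 in the vesicular gland, 2 and 5 in the prostate and 4 and 2 in the bulbourethral gland. Over all genes lower calls also outnumbered higher ones in the vesicular gland (5952 against 584) and in the prostate (2541 against 732).

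The carrier with the largest difference was SLC9A3, the apical sodium and proton exchanger, in the vesicular gland (5.39), followed by SLC12A2, the basolateral sodium, potassium and chloride cotransporter of secretory epithelia, in the bulbourethral gland (5.09) and the prostate (3.92). SLC9C1, the sperm sodium and proton exchanger, was called higher in testis (4.14), as was ATP1A4. BMI prostate replicate 2 had 55.7 TPM of SLC9A3 against at most 0.333 TPM in the other prostate libraries.

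The genes most like each member over the 30 libraries were found among 13918 named genes by Pearson's r of log2(TPM + 1). These libraries share gland and breed, and r is a description. ATP1A4 was most like PRKCQ and TEX50 (each r = 0.997). ATP1B1 was most like VEGFA (0.924), DPP4 (0.896) and LNX1 (0.890), ATP1B2 most like MVB12B (0.952), FADS2 (0.949) and DIP2C (0.947), and ATP1B3 most like NABP1 (0.939), MSH6 (0.936) and PGD (0.931). The likeness of ATP1A4 was the closest, and that of ATP1B1 the least close.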

How the data were processed

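The authors aligned clustered full-length Iso-seq reads to Sscrofa11.1, collapsed them to isoforms and deposited the number of full-length reads (counts) of each isoform in each of 10 libraries. RNA-seq TPM of 133722 transcripts were computed by the authors with Salmon 1.9.0 against Ensembl transcripts merged with the Iso-seq isoforms that did not match a known transcript in full or in part, and were deposited for 30 libraries. TPM keep no depth, and read totals of the RNA-seq libraries were not used here. The methods name poly-T beads for the RNA-seq libraries while the labels name depletion of ribosomal RNA. Short RNA data were not used here, and some genes of the lists are not reported here.

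TPM were summed by gene. Of 121 genes sought, 98 were found by name and 14 unnamed loci by position (same strand and at least 50% of the RefSeq exon bases), and 9 were not found. limma 3.58.1 (R 4.3.3) was fitted to log2(TPM + 1) with the mean of each breed and gland, a trended empirical Bayes variance and a pseudocount of 1 TPM, for genes, isoforms and isoform shares, and tested on simulated data. No batch is given in the labels. The members and lists were chosen with earlier results of these data known. Named isoforms are up to 4 a member by mean TPM with a share of at least 10% in some gland, and those called between breeds. Alternatives were a pseudocount of 0.1 TPM, no filter, median-of-ratios size factors, sums by gene identifier, each library left out, a replicate block, a fit of each gland alone and, for shares, a minimum of 5 TPM. Leaving out both libraries that stood apart was chosen after seeing the data. Replicate numbers were not taken as pairs: the deviations of same-numbered libraries correlated above 0.1 in 4 of 15 pairs between breeds and in 21 of 60 between glands of a breed, with all 3 above it for DSE vesicular gland with testis and with epididymis. No libraries held identical values. Intervals of shares are Wilson 95% intervals and those of read rates exact Poisson intervals, from Python 3.11.15 with scipy 1.17.1.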

Additional observations from a re-analysis of the deposited data

Results flagged for a closer look

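In 3 isoforms of the members the breed difference changed between glands by limma's F test over 64661 transcripts. PB.13390.4 of ATP1B1 had F = 9.88 (adjusted p = 0.00573). It reached 10.8 to 20.1 TPM in DSE prostate and 0.816 to 3.69 TPM in BMI prostate, and at most 1.92 TPM in any other library. PB.13510.14 of ATP1A4 had F = 7.99 (adjusted p = 0.0177) and PB.13510.24 of ATP1A4 had F = 7.40 (adjusted p = 0.0257). Both were lower in DSE testis than in BMI testis. PB.13510.14 was listed at 0 in all 24 libraries of the other glands and PB.13510.24 in 23 of them, so both passed the filter through testis alone and the F test takes up the testis difference. With testis fitted alone that difference was not called (adjusted p of 0.454 and 0.493), nor was that of PB.13390.4 with the prostate fitted alone (0.184).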

How the results depend on the processing

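Of the members' results at the level of genes, isoforms and isoform shares, 4618 values under an alternative kept their direction and side of the threshold, 66 fell below it, 20 rose above it and 18 changed sign. After size-factor scaling the sign changed for ATP1B1 in bulbourethral gland (-0.17 against 0.06), ATP1B3 in epididymis (-0.41 against 0.09) and vesicular gland (0.59 against -0.26), for the pairs of vesicular minus prostate in ATP1A4 (0.022 against -0.018), vesicular minus bulbourethral in ATP1B2 (0.19 against -0.20), epididymis minus vesicular in ATP1B3 (-0.80 against 0.28) and prostate minus bulbourethral in ATP1B3 (0.022 against -0.25), and between breeds for ATP1A4 in prostate (-0.00144 against 0.05), ATP1B1 in vesicular gland (0.30 against -0.23) and ATP1B3 in prostate (-0.14 against 0.30). The pair of ATP1A4 was 0.00558 without the 2 libraries that stood apart. None of these differences was called with the settings used in the report, and the cause was not tested.

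Leaving out each library in turn gave -0.048 to 0.20 for ATP1B1 in bulbourethral gland, -0.016 to 0.26 for ATP1B3 in epididymis, -0.044 to 0.00558 for the ATP1A4 pair, and between breeds -1.13 to 0.18 for ATP1B1 in epididymis, -0.13 to 0.00639 for ATP1B3 in testis and -0.11 to 0.00591 for ATP1B3 averaged over glands. Counts of calls ranged over 12 to 14 for glands, 22 to 24 for pairs, 0 to 1 for breeds, 47 to 52 for isoforms by gland, 3 to 8 for isoforms by breed and 4 to 7 for shares by gland. Isoform calls between breeds were 6, and 3 with a pseudocount of 0.1 TPM, 3 without both libraries and 0 with each gland fitted alone. The replicate block gave 13, 23, 0, 50, 6 and 7 calls in the order of the ranges above. Other alternatives kept each count of the members' calls within 1.5 times.

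By full-length reads the shares moved from 43.8% to 1.71% for PB.13510.23, from 50.9% to 1.82% for PB.13390.5 and from 70.3% to 0% for ENSSSCT00000012782, and those of the leading beta gene to 87.6% for ATP1B3 in testis and, for ATP1B1, to 4.65% in epididymis, 49.7% in prostate, 23.9% in vesicular and 10% in bulbourethral gland. Counts of calls over all genes moved by more than 1.5 times with a pseudocount of 0.1 TPM in epididymis (6516 against 4291), vesicular gland (10412 against 6536), prostate (5935 against 3273), bulbourethral gland (6782 against 4047) and the vesicular and prostate pair (4593 against 2932), and between breeds in testis (542 against 948), vesicular gland (158 against 97), over all glands (307 against 76) and in the change between glands (279 against 585, and 1058 with no filter). Size factors moved the vesicular gland (3802 against 6536), its pairs with epididymis (2996 against 7226) and bulbourethral gland (3268 against 5496) and its breed calls (176 against 97). Without both libraries the breed calls were 503 in testis and 193 in vesicular gland, and with each gland fitted alone 39 in testis against 948, 0 in epididymis against 139, 3 in vesicular gland against 97, 17 in prostate against 118 and 5 in bulbourethral gland against 59. ATP1B1 had 19 and 55 full-length reads in the prostate libraries, so isoform shares there are known no closer than the intervals given.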

Other observations

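NKAIN3, a membrane protein that binds the beta chain of the pump, was the 1 gene of the 9 tested in the FXYD and NKAIN list called between breeds, against 0.596% of all genes in the prostate. It had 2.87, 3.30 and 7.16 TPM in DSE prostate and 0.195, 0.0601 and 0 TPM in BMI prostate. The difference was 2.25 on the log2(TPM + 1) scale (limma adjusted p = 1.3e-05), and it changed between glands (F = 16.9, adjusted p = 0.000162). ATP1B1, a beta chain, was not called between breeds in that gland. NKAIN4 reached 93.0 TPM in 1 library, DSE epididymis replicate 1, the library with the lowest ATP1B1 of the epididymis.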
